A study of Mus musculus with 47 samples.

Results

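Lungs of 4 Daxx Y130A/Y130A embryos were compared with lungs of 3 wild-type littermates, which are 7 of the 47 libraries of the series. They were selected by their labels, as all lung libraries of the Y130A litters. RNA of liver, lung and brain was sequenced at embryonic day E18.5 in mice with either of a pair of knock-in alleles of Daxx, each against its own wild-type littermates. The Y130A substitution removes the binding of Daxx to the chromatin remodeler Atrx, and the S226A substitution removes its binding to the histone variant H3.3. Both groups of lungs came from intercrosses of Daxx Y130A/+ mice on a C57BL/6 background. The allele had been made in C57BL/6N zygotes, and founders were crossed to C57BL/6J mice, so that both substrains contribute to the genomes of mutants and controls. Next to Daxx, mutants carry sequence of the edited C57BL/6N chromosome on both copies, so that allele and substrain cannot be told apart there. The 4 mutant lungs are of litters 2848, 2851, 2974 and 3069, with 1 embryo each, and the 3 wild-type lungs are of litters 2848, 2851 and 2974. A wild-type lung of litter 3069 was removed by the authors after quality control and was not analysed here, so the mutant lung of that litter has no littermate control. Transcripts of Y-linked genes were at background in both lungs of litter 2848 and in the mutant of litter 3069 and abundant in the other 4, so that sexes matched within each complete litter. Mutants thus held 2 females and 2 males, and controls 1 female and 2 males.

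Daxx is a histone chaperone that, together with Atrx, places H3.3 at telomeres, at repeats and at endogenous retroviruses, where the complex is known for silencing. Shortly before birth, the mouse lung consists of sacs lined by flat type 1 (AT1) and surfactant-making type 2 (AT2) alveolar cells over a dense bed of capillaries, with mesenchyme, airway epithelium and immune cells between them. Each lung library is of the whole organ, and a lower count can come from fewer cells of a type or from less RNA per cell, which cannot be told apart in bulk RNA. The allele concerns codon 130 of 740 in exon 3 of 8 of Daxx (transcript Daxx-201). The reference sequence around it is given because it shows the residue that all 4 mutant lungs lack. It lies at chr17:33911370-33911432 on the plus strand (GRCm38, GENCODE M21), and the tyrosine codon at 33911400 to 33911402 is in capitals.
Daxx codon 130: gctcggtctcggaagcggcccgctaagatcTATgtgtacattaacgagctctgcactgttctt

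The total count was 36351738 to 49731811 per library (median 39504088), highest in the mutant lung of litter 2848, against 15722147 to 21512763 in the 8 lungs of the S226A litters. Lung identity was clear in each of the 7 libraries. Sftpc, the surfactant protein of AT2 cells, had 170587 ± 16705 normalized counts per kb of exon in Y130A (mean ± SD, n = 4) and 171080 ± 29692 in wild-type lung (n = 3), and Ager, a marker of AT1 cells, had 15789 ± 1501 and 15297 ± 1410. A normalized count is a read count divided by the TMM-scaled library size and multiplied by the geometric mean of these sizes over all 47 libraries.

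Across the transcriptome, Y130A and wild-type littermate lungs differed in few genes. By the stringent criteria of the study (adjusted p below 0.01, more than 2-fold and a standard error below 1) 0 of 16892 genes were called (0%, edgeR quasi-likelihood test). DESeq2 called 8 (0.0392% of 20417). With edgeR, 493 genes (2.92%) had an unadjusted p below 0.05, a smaller share than that limit itself. The share was 10.9% of genes below a mean of 10 normalized counts and 0.586% of those at 1000 or more, so 2.92% does not describe each level. At an adjusted p below 0.05 without a limit on the fold, 3 genes were called (0.0178%), of which Tmem267 and Car1 rose (0.0118%) and Igfbpl1 fell (0.00592%). DESeq2 called 17 genes at that level (0.0833%). Without wild-type lung 2848 the edgeR count was 6, and without wild-type lung 2851, wild-type lung 2974 or mutant lung 3069 it was 0. A fit of only the 7 lungs also gave 0 at this level. With litter as a block over all 47 libraries, edgeR called Tmem267 (adjusted p = 0.0362) but not Car1 (0.151) or Igfbpl1 (0.256). That fit also called Frmpd4 and Dpys (0.0253 each).

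In the fit over all 47 libraries, most differences were bounded tightly. The spread behind the intervals was estimated over liver, lung and brain together and was not specific to lung. A gene that varies more between lungs can thus have too narrow an interval. For 12684 genes (75.1%), the 95% interval of the log2 fold change lay between -1 and 1, so that a 2-fold difference in either direction lay outside it. This share was 99.3% of the 5805 genes with a mean of 1000 normalized counts or more, 94% of the 6490 between 100 and 1000, 31% of the 2633 between 10 and 100, and 0.0509% of the 1964 below 10. The median standard error was 0.10 in the most abundant class and 1.00 in the least abundant one. The median log2 fold change over all genes was -0.0029, with quartiles of -0.09 and 0.08. Of the 12295 genes with a mean of at least 100 normalized counts, 21 had a fitted difference beyond 2-fold, 19 higher and 2 lower in Y130A, and 4 of these had an unadjusted p below 0.05. Except for Tmem267, the mutant and wild-type values of these 21 genes overlapped. Tmem267 and the early response gene Nr4a1 apart, the 21 are known as genes of skeletal muscle (among them Mylpf, Neb and Mybpc1), of liver (Alb, Fga and Gc) or of squamous epithelium (Krt4 and Krt5), and 16 of the 21 were highest in the mutant lung of litter 2848. These genes were singled out after their values were seen. Over all genes tested, the groups did not overlap for 4.16%, with each mutant higher than any control for 1.61% and lower for 2.55%.

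**Figure D1:**
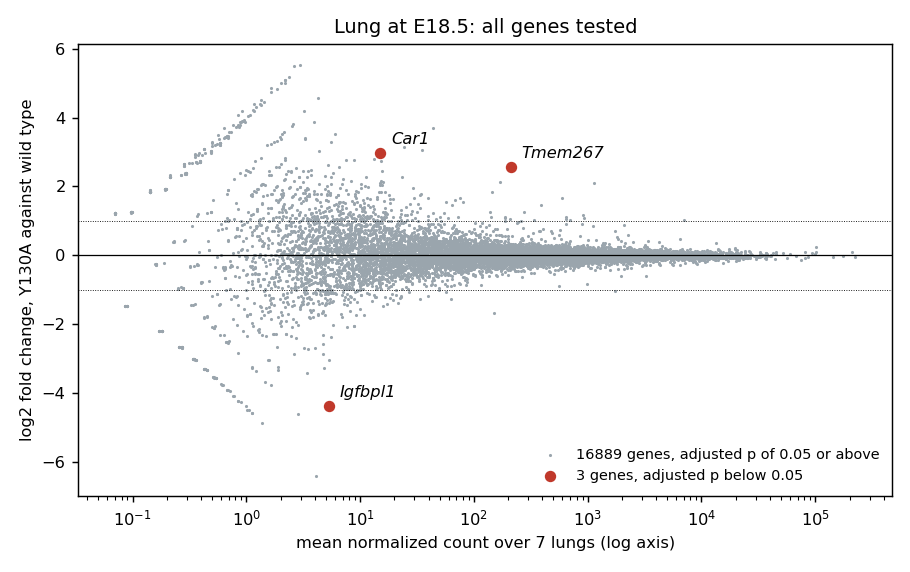
Log2 fold change of each gene tested (y axis, Y130A against wild-type lung) against its mean normalized count over the 7 lungs (x axis, log scale); dotted lines mark 2-fold, and 142 genes with no read in these lungs are not drawn. The cloud narrows with abundance, and the 3 red points are the genes with an adjusted p below 0.05.

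Tmem267, which encodes a transmembrane protein of little known function, was 1 of the 3 genes called and was also called with litter as a block. Its normalized count in Y130A was 358 in litter 2848, 311 in litter 2851, 323 in litter 2974 and 314 in litter 3069. Wild-type lungs of litters 2848, 2851 and 2974 had 89.4, 6.02 and 69.6. The mutants lay close together and far above all controls, while the controls differed among themselves, with only 10 reads in wild-type lung 2851. The 4 wild-type lungs of the S226A litters, of lower depth, had 46.5 to 107. The log2 fold change was 2.57 (SE 0.47, 95% interval 1.61 to 3.53, adjusted p = 0.0249 with edgeR), and Tmem267 was higher in the mutant in 3 of 3 complete litters, by 1.99, 5.48 and 2.20 on the log2(normalized count + 1) scale. A two-sided exact permutation test over the 7 lungs gave p = 0.0286, the smallest value its 35 arrangements allow. DESeq2 gave an adjusted p of 8.69e-05, with which Tmem267 passed the stringent criteria. With litter as a block the adjusted p was 0.0362. The call was lost without wild-type lung 2851 (log2 fold change 2.04, adjusted p = 0.507), wild-type lung 2974 (0.163), mutant lung 2848 (0.0518) or mutant lung 3069 (0.0505), and in fits of only the 7 lungs (1.00), only the 15 lungs of both sets of litters (1.00) or the 6 lungs of complete litters with the block (0.197).

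The 3 wild-type embryos kept their order in the other organs. In liver, Tmem267 had 297, 345, 409 and 321 normalized counts in the mutants of litters 2848, 2851, 2974 and 3069, and 117, 17.3, 87.2 and 42.1 in their wild-type littermates. In brain the mutants had 715, 910, 1051 and 804 and the controls 243, 96.5, 224 and 96.5. Thus wild-type embryo 2851 was lowest, and wild-type embryo 2848 highest, of the 3 controls with a lung library in each organ. The log2 fold change was 2.38 in liver and 2.40 in brain. The test of the difference between lung and either organ gave an adjusted p of 1 (edgeR).

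Tmem267 lies at chr13:119488039-119611059 on the plus strand (GRCm38, GENCODE M21). The lower coordinate of 11 genes, Tmem267 among them, lies within 500 kb of that of Tmem267. Of the other genes in this window 8 were tested, and 1 of them, Ccl28, had an unadjusted p below 0.05 in the lung, as did 2.92% of all genes. Ccl28, a chemokine of mucosal epithelium that starts 136 kb from the start of Tmem267 and beyond its end, had 50.8, 29.2, 29.6 and 30.6 normalized counts in Y130A and 12.6, 0 and 8.92 in wild-type lungs. The groups did not overlap, and wild-type lung 2851 was again the lowest, with 0 reads. Wild-type lungs of the S226A litters had 0 to 45.3, a range that overlaps the mutants. The log2 fold change of Ccl28 was 2.28 (SE 0.83), with an unadjusted p of 0.0088 and an adjusted p of 1 (edgeR), so that it was not called. In brain, where Ccl28 was more abundant, it had 174 to 212 normalized counts in the 4 mutants and 21.4 to 71.1 in the 4 controls. Nnt, the mitochondrial transhydrogenase that is defective in C57BL/6J, lies upstream of Tmem267 on the opposite strand. It had 109, 77.4, 63.4 and 76.2 normalized counts in Y130A and 127, 63.8 and 78.5 in wild-type lungs, so that the groups overlapped (log2 fold change -0.14, SE 0.25). 3110070M22Rik overlaps the start of Tmem267 on the opposite strand, and whether reads were counted by strand is not given in the sources used here. It had 31.1, 12.9, 24.8 and 31.3 normalized counts in Y130A and 15.7, 3.01 and 16.1 in wild-type lungs, with overlap. The other genes tested in this window, which include Hmgcs1 of cholesterol synthesis and the zinc finger gene Zfp131, had log2 fold changes between 0.01 and 0.44 and an unadjusted p of 0.135 or more.

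The promoter windows of Tmem267 and Ccl28 are shown because both genes separated the groups and lie in 1 region. Each spans 250 bases before to 50 after a start annotated by RefSeq (GRCm38.p6), read on the plus strand with CG dinucleotides in capitals. Tmem267 (chr13:119487836-119488135) has 22 CG, a number that 23.1% of 32851 promoter windows of this length reach, and a second annotated start (chr13:119488223-119488522, not printed) has 50, reached by 0.9%. Ccl28 (chr13:119623569-119623868) has 4, reached by 68.6%, and the median of all windows is 7. These counts describe the reference sequence, and DNA methylation was not measured in these libraries.
Tmem267 promoter: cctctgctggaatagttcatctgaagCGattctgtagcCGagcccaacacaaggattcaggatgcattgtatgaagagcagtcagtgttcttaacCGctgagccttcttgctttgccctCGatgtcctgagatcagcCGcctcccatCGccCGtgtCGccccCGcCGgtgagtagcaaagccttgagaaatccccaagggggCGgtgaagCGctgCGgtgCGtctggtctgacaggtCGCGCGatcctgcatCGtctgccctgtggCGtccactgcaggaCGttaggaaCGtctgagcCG
Ccl28 promoter: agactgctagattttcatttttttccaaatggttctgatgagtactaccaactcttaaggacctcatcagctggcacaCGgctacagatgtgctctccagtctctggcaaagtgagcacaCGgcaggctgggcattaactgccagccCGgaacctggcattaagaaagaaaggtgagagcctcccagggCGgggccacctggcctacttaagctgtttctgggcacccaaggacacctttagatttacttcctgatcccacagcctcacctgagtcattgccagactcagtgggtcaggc

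**Figure D2:**
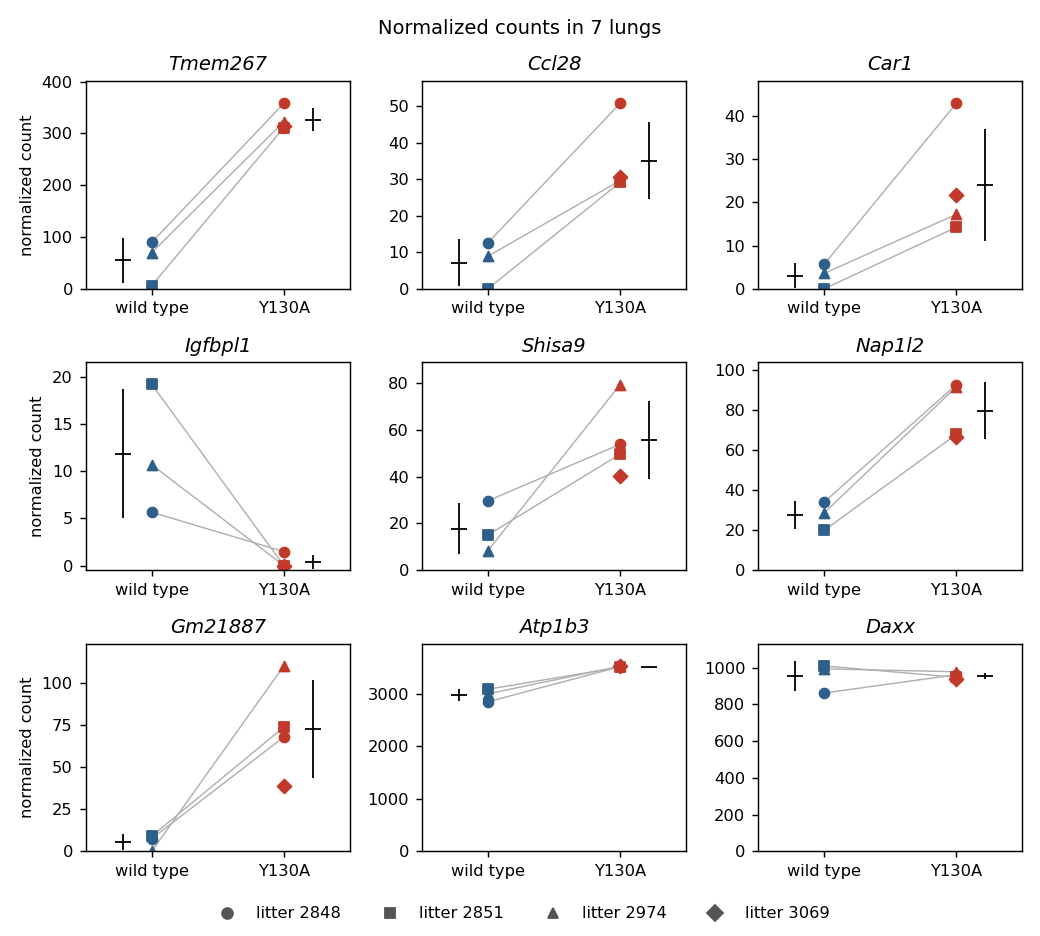
Normalized count (y axis) of 9 genes in the wild-type and Y130A lungs, with 1 symbol per litter, grey lines between littermates and black bars for mean ± SD (n = 3 and 4). Tmem267, Ccl28, Car1, Shisa9, Nap1l2, Gm21887 and Atp1b3 are higher in each mutant than in any control and Igfbpl1 is lower, while Daxx overlaps.

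Car1, carbonic anhydrase 1, an enzyme of red blood cells, was the other gene that rose. It had 42.9, 14.2, 17.2 and 21.8 normalized counts in Y130A (litters in the same order) and 5.67, 0 and 3.57 in wild-type lungs. All mutants exceeded all controls, and the mutant lung of litter 2848 was the highest. Wild-type lungs of the S226A litters had 0 to 26.3, which overlaps the mutants. The log2 fold change was 2.98 (SE 0.58, adjusted p = 0.0452 with edgeR), higher in 3 of 3 litters. DESeq2 gave an adjusted p of 0.00188, with which Car1 passed the stringent criteria, while with litter as a block the adjusted p was 0.151. The call was lost with robust estimates of the spread (0.0566) and without wild-type lung 2851 (0.564), wild-type lung 2974 (0.356), mutant lung 2848 (0.281) or mutant lung 3069 (0.0505). The fetal liver makes most red cells at this age, and Car1 was called there as well, with 5227 ± 729 normalized counts in Y130A and 984 ± 99.6 in wild-type liver (mean ± SD, n = 4 each). The lung level was 0.302% to 0.736% of that in the liver of the same embryo in mutants and 0% to 0.514% in controls. For the liver gene Alb, albumin, this share was 0.0263% to 0.63% and 0.0672% to 0.154%, and for the red cell anion exchanger Slc4a1 0.628% to 1.26% and 0.66% to 1.01%. The part of blood or liver RNA in the Car1 difference was not tested.

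None of the other erythroid genes was called by edgeR. Of 13 list members tested, 1 was called higher and 0 lower, 7 had a log2 fold change above 0 and the median was 0.03. The adult globins Hba-a1 and Hbb-bs had log2 fold changes of -0.14 each, and Hba-a1 had 25307 ± 5651 normalized counts per kb in Y130A and 27962 ± 9329 in wild-type lungs. The heme synthesis gene Alas2 was at -0.04.

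Igfbpl1, a gene for an insulin-like growth factor binding protein-like protein, was the 1 gene that fell. It had 3 reads in mutant lung 2848 and 0 in the other 3, against 9, 32 and 18 reads in the wild-type lungs of litters 2848, 2851 and 2974, which correspond to normalized counts of 1.48, 0, 0 and 0 and of 5.67, 19.3 and 10.7. The groups did not overlap, and the littermates of litter 2848 were the closest. The reads of all wild-type lungs together exceeded those of all mutants 25.6-fold after scaling, with an exact 95% interval of 8.35 to 128 that covers counting error only. The fitted log2 fold change was -4.38 (adjusted p = 0.0249 with edgeR), and it ranged from -6.70 to -3.85 when 1 lung was left out. Igfbpl1 passed the stringent criteria with DESeq2 (adjusted p = 0.000295), and with litter as a block the adjusted p was 0.256. Without wild-type lung 2851 it was 0.507, without wild-type lung 2974 it was 0.0871, without mutant lung 3069 it was 0.0505, and without wild-type lung 2848 it was 0.00615, where Igfbpl1 passed the stringent criteria. It had too few reads to be tested in the fit of only the 7 lungs.

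The next genes by p that were lower in Y130A were rare transcripts or small differences, and none was called by edgeR with all 7 lungs and no block. Ankdd1a had 1 read in all 4 mutants and 6, 10 and 16 reads in the controls, a ratio of 41.7 in favour of the controls (exact 95% interval 6.96 to 1697, for counting error only), and it was called by DESeq2 (adjusted p = 0.0335). The forkhead gene Foxe1 of thyroid and palate had 0 reads in each mutant and 9, 19 and 19 in the controls. The mean of the controls was 4.97-fold above a floor of 3 reads per library, a value that leaves out the spread of the controls. The fitted log2 fold change of Foxe1 was -6.40 (SE 1.63, adjusted p = 0.675 with edgeR), with an unadjusted p of 0.198 in DESeq2. Frmpd4, a scaffold of synapses, had 1.48, 0, 0 and 3.4 normalized counts in Y130A and 7.56, 16.2 and 8.92 in wild-type lungs, lower in 3 of 3 litters. It was called with litter as a block (adjusted p = 0.0253) and by DESeq2 (0.000177), and its log2 fold change was -3.02 (SE 0.70, adjusted p = 0.258 with edgeR). Taf1d, a subunit of the RNA polymerase I factor SL1, was the abundant gene among them. It had 1981, 1982, 1539 and 1829 normalized counts in mutants and 2557, 2384 and 2244 in controls, without overlap, at a log2 fold change of -0.39 (SE 0.10, adjusted p = 0.42). Zfp992, of a family of zinc finger genes with near-identical members whose reads can be misassigned, had -1.27 (SE 0.33), with mutant 3069 at 39.5 within the range of the controls. In the 3 complete litters, Zfp992 was lower in the mutant by 1.88, 1.62 and 1.51 on the log2(normalized count + 1) scale. Its adjusted p with edgeR was 0.0544 with litter as a block and 0.42 without it. The dopamine receptor gene Drd4 (1 read in mutants and 18 in controls), the opioid receptor gene Oprk1 (0 reads in mutants and 3, 9 and 0 in controls), Ceacam10 and AU015836 completed the 10 lower genes. Ceacam10 was at -2.03 (adjusted p = 0.4) and was called by edgeR without mutant lung 2974 (-3.19, adjusted p = 0.0197).

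The other genes with the lowest p that were higher in Y130A were not called by the edgeR test either. Shisa9, an auxiliary subunit of AMPA receptors, had 53.8, 49.5, 79.3 and 40.1 normalized counts in Y130A and 29.6, 15 and 8.33 in wild-type lungs, a log2 fold change of 1.66 (SE 0.35, adjusted p = 0.106). The 4 wild-type lungs of the S226A litters had 34.6, 46.5, 60.7 and 71.2, close to the Y130A lungs and above the 3 littermate controls. Nap1l2, an X-linked nucleosome assembly gene of neurons, had 92.7, 67.9, 91.7 and 66.7 against 34, 19.9 and 28.6, with a log2 fold change of 1.54 (SE 0.36, adjusted p = 0.258). Wild-type lungs of the S226A litters had 1.48 to 18.6 for Nap1l2. Both genes were higher in each mutant than in any littermate control and in 3 of 3 litters. DESeq2 called both (adjusted p = 0.000877 and 1.33e-07), and edgeR called Shisa9 only without wild-type lung 2848 (0.0154). Npffr2, a receptor for neuropeptide FF, had 5.43 to 13.8 normalized counts in mutants and 0.595 to 1.26 in controls. Rims2, of the presynaptic active zone, had 32.6, 128, 89.6 and 133 in mutants and 40.9, 25.3 and 26.8 in controls, so that mutant lung 2848 lay within the controls. Without that library Rims2 was called (adjusted p = 0.0255), and with it the adjusted p was 0.328 with edgeR and 0.0163 with DESeq2. Mapk8ip2, a scaffold of the JNK pathway in neurons, was called by DESeq2 (adjusted p = 0.000703) and had 18.7, 4.75, 20.7 and 21.1 against 5.67, 1.81 and 7.73, with overlap. Of 20 neuroendocrine and neuronal genes tested, 0 were called by edgeR and 1 by DESeq2 (Scn3b, adjusted p = 0.0367), 3 had an unadjusted p below 0.05 (Resp18, Scn3b and Celf3, all higher, as were 1.71% of all genes), 9 lay above 0, and the median log2 fold change was -0.08.

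Gm21887, which RefSeq lists as a synonym of Erdr1, lies at the end of the X chromosome (chrX:170009659-170019281), where reads of near-identical copies can be misassigned. It had 68.1, 74, 110 and 38.8 normalized counts in Y130A and 7.56, 9.03 and 0 in wild-type lungs. All mutants were above all controls, while wild-type lungs of the S226A litters had 1.39, 6.64, 17.8 and 71.2, the last of them within the range of the mutants. The log2 fold change of 3.70 (SE 0.90) had an adjusted p of 0.333 with edgeR and 0.00888 with DESeq2. Chsy1, an enzyme of chondroitin sulfate synthesis, was the abundant gene among the 10 higher genes. It had 3873, 4776, 5647 and 4672 normalized counts in mutants and 3073, 3893 and 3875 in controls, a log2 fold change of 0.39 (SE 0.10, adjusted p = 0.4). Each mutant exceeded its own littermate, while mutant lung 2848 lay within the range of the controls. Dpys and Mbl2, genes of pyrimidine breakdown and of the lectin pathway that are known from liver, had 28.1, 0.679, 18.6 and 7.48 and 19.7, 7.46, 8.96 and 3.4 normalized counts in mutants. In controls they had 6.3, 0 and 0 and 1.26, 1.2 and 0, and both were highest in mutant lung 2848. Dpys was called with litter as a block (adjusted p = 0.0253) and not without it (0.4). Without the block it was called when wild-type lung 2848, the control with reads, was left out (0.0418) or mutant lung 2851 (0.0354). Mbl2 was called by DESeq2 (0.0497). In mutant lung 2848, Dpys reached 0.449% and Mbl2 0.661% of the level in the liver of the same embryo, and Alb reached 0.63% there. The part of liver RNA in their differences was not tested.

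No component of the Daxx pathway was called by edgeR, and the intervals were narrow. Daxx itself had 962, 948, 978 and 938 normalized counts in Y130A and 862, 1010 and 994 in wild-type lungs, with full overlap and a 95% interval of the log2 fold change from -0.19 to 0.19. These values are of RNA. In blots of E18.5 lung and embryonic fibroblasts, the study reports more Daxx protein with Y130A than in wild type. Atrx, the partner whose binding the allele removes, had 12476 to 14133 in mutants and 12546 to 13795 in controls (log2 fold change 0.06, interval -0.09 to 0.21). H3f3a and H3f3b, which both encode H3.3, were at -0.05 (interval -0.29 to 0.19) and -0.00 (interval -0.27 to 0.26), and the sign of the H3f3b value changed with the scaling of the libraries. Of 31 genes for H3.3 chaperones and silencing factors, 0 were called in either direction, 30 had an interval within 2-fold and the median log2 fold change was -0.02. The H3.3 chaperone Hira was at 0.06, the H3K9 methyltransferase Setdb1 at 0.01 and its cofactor Trim28 at -0.03. The lowest p of the list was that of Asf1b, a chaperone of H3 and H4 in replication, with -0.31 (SE 0.15, unadjusted p = 0.041), and 4 mutant values of 248 to 349 against 333 to 384 normalized counts in controls overlapped. Of 48 genes on chromosome 17 whose lower coordinate lies within 500 kb of that of Daxx, 42 were tested and 2 had an unadjusted p below 0.05 (4.76%, against 2.92% of all genes), the prefoldin gene Pfdn6 (log2 fold change -0.33, SE 0.13) and the class II gene H2-Eb1 (-0.81, SE 0.38). The other genes in this window had a median of -0.01.

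No gene of a resident lung cell type was called by edgeR. Of 42 lists with 533 different genes, 517 genes were tested, 2 were called (Tmem267 and Car1), and 17 were higher and 4 lower at an unadjusted p below 0.05, against 1.71% and 1.21% of all genes. The intervals of 344 of the 517 genes (66.5%) lay within 2-fold. Of 15 AT2 genes, 0 were called, 14 intervals lay within 2-fold and the median log2 fold change was 0.07, between -0.06 for Etv5 and 0.20 for the lysozyme gene Lyz2. Of 13 AT1 genes, 0 were called and the median was 0.05, and Rtkn2 had the highest value, 0.47 (SE 0.21, unadjusted p = 0.0298). Rtkn2 had 4889, 7771, 8593 and 8216 normalized counts in mutants and 3803, 6060 and 6049 in controls, so that both lungs of litter 2848 were lowest in their group. The capillary list (16 genes, median 0.02) and the fibroblast list (14 genes, median 0.03) also held 0 calls, and Pecam1 of endothelium had 2712 ± 191 normalized counts per kb in Y130A and 2654 ± 139 in controls. Dnah11, a dynein of ciliated airway cells, was at 0.42 (SE 0.17) while the ciliated list was at -0.01, and Reln was at 0.28 (SE 0.13) while the lymphatic list was at 0.07.

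No gene of the programs tested for the lung around birth was called by edgeR. Of 12 genes for lung fluid clearance, such as the sodium channel subunits Scnn1a, Scnn1b and Scnn1g, all 12 intervals lay within 2-fold and the median log2 fold change was 0.06. The 13 glucocorticoid response genes had a median of 0.05, the 16 genes of morphogen signalling -0.05 and the 17 genes of extracellular matrix 0.01, with 0 calls and all intervals within 2-fold in each. Targets of p53 (15 genes, median -0.02), hypoxia genes (12 genes, 0.02) and clock genes (12 genes, 0.08) held 0 calls as well. The 20 cell cycle genes lay all below 0, from -0.31 to -0.05, with a median of -0.16, while 48.2% of all genes lay above 0. None of them reached an unadjusted p below 0.05 without a litter block, and Mki67, a marker of dividing cells, had 12466, 10013, 9222 and 11112 normalized counts in mutants and 15046, 9944 and 11010 in controls. The control of litter 2848 was the highest and the groups overlapped. The mean level of the list, as log2(normalized count + 1), was lower in the mutant in each of the 3 complete litters, at 10.39, 10.07 and 9.96 against 10.48, 10.14 and 10.33. With litter as a block, Birc5, a regulator of cell division, had an unadjusted p of 0.00993 and an adjusted p of 0.98 (edgeR), against an unadjusted 0.0575 without the block.

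**Figure D3:**
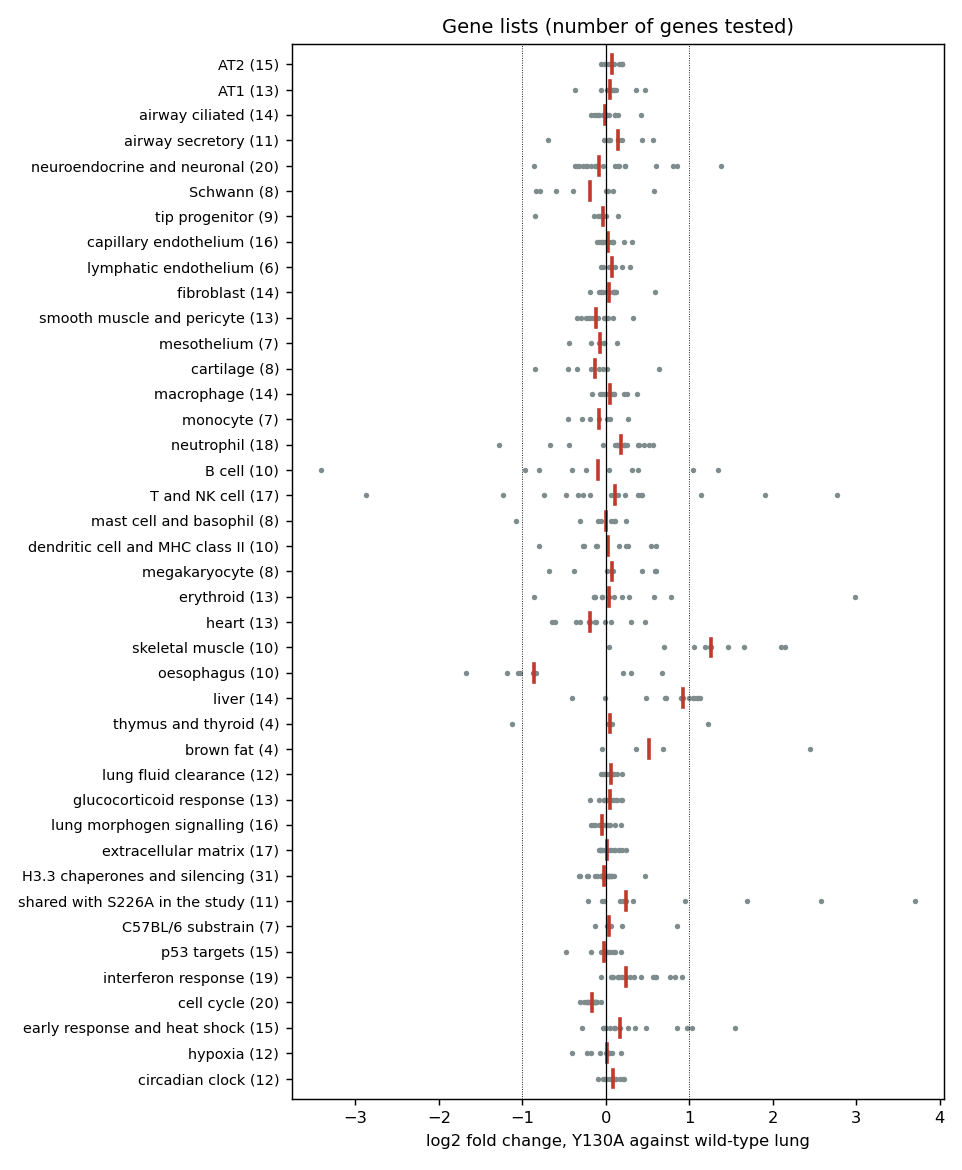
Log2 fold change of each tested gene (grey points; x axis, Y130A against wild-type lung) in 41 gene lists (y axis, number of genes in parentheses), with the median of each list as a red bar and 2-fold as dotted lines. Most medians lie near 0, and those furthest from 0 are of skeletal muscle, liver and oesophagus.

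No immune gene was called by edgeR. Of 18 neutrophil genes, 0 were called, and Mmp9, a granule protease, and Itgam, an integrin of myeloid cells, had an unadjusted p below 0.05, as did 2.92% of all genes. Mmp9 had 86.8, 38.7, 126 and 134 normalized counts in Y130A and 58.6, 78.2 and 73.2 in controls, and Itgam had 34, 40, 32.4 and 29.9 against 31.5, 22.3 and 17.8, so that both overlapped. The neutrophil list had a median log2 fold change of 0.19, the macrophage list (14 genes) one of 0.05 and the monocyte list (7 genes) one of -0.08. The B cell gene Ms4a1, which encodes CD20, had 1.97, 0, 0 and 0 normalized counts in mutants and 5.04, 9.63 and 7.14 in controls without overlap (adjusted p = 1), while the 10 B cell genes had a median of -0.10. Eomes, a regulator of natural killer cells, was at -2.87 (SE 0.85) with at most 8.82 normalized counts in any lung. H2-Eb1, a chain of an MHC class II molecule, had 54.8, 58.4, 46.9 and 64.6 normalized counts in mutants and 99.5, 101 and 94 in controls, without overlap, while the list of dendritic cell and class II genes was at 0.02. Of 19 interferon response genes, 18 lay above 0, with a median of 0.24 and 0 calls, and without the control of litter 2848 the median was 0.02. Mx1, an antiviral GTPase with the lowest p of that list, had 72, 42.7, 64.1 and 65.3 against 13.2, 45.1 and 38.7. The control of litter 2848 was lowest, and it was also lowest in the mean level of the list (7.13, against 8.08 to 8.58 in the other 6 lungs, mean of log2(normalized count + 1)).

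The lists of skeletal muscle, liver, oesophagus and heart varied widely between libraries. The level of the skeletal muscle list was 9.86, 6.62, 9.71 and 7.13 in the mutants of litters 2848, 2851, 2974 and 3069 and 8.51, 6.45 and 7.31 in controls, and 10 of its 10 genes lay above 0 (median log2 fold change 1.26, 0 called). Mylpf, a myosin light chain, had 889, 156, 931 and 142 normalized counts in mutants and 322, 114 and 141 in controls, so that 2 mutant lungs were high and 2 lay among the controls. The liver list was at 9.86, 5.97, 7.53 and 7.98 in mutants and 8.2, 7.04 and 7.86 in controls, with a median log2 fold change of 0.92 and 0 of 14 called. Without mutant lung 2848 the liver median was -0.34, so that its sign rested on that library. Alb had 25182 normalized counts in mutant lung 2848 and 1141 to 5711 in the other 6. The oesophagus list was at 3.42 and 3.62 in the mutants of litters 2851 and 3069 and between 6.17 and 7.16 in the other 5 lungs (median log2 fold change -0.87). The heart list was at 7.55 in mutant lung 2851 and between 9.84 and 10.2 in the other 6 (median -0.19). AT2 genes lay between 13.7 and 14.2 in all 7. The part of these organs in the differences of other genes was not tested beyond the values given beside them.

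**Figure D4:**
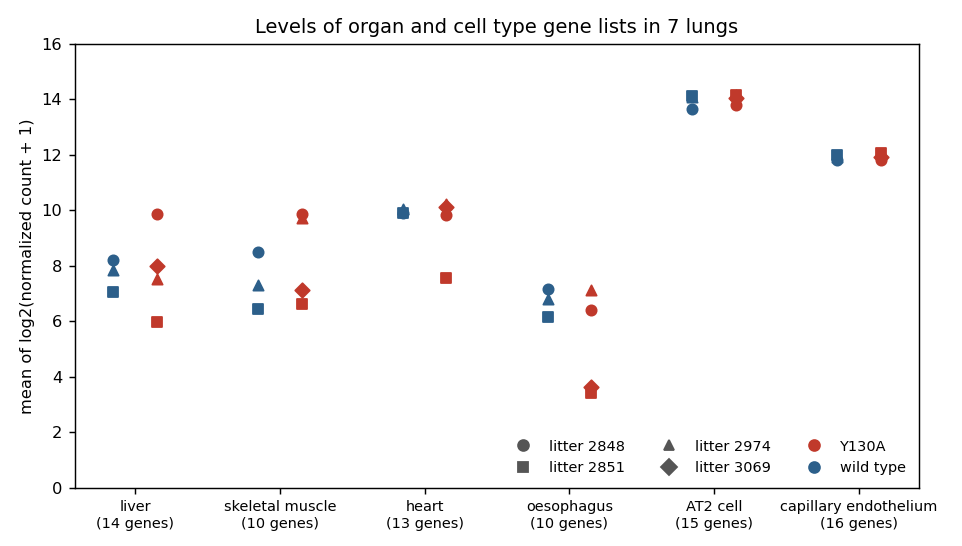
Mean of log2(normalized count + 1) over the genes of 4 lists of other organs and 2 lists of lung cells (x axis) in each of the 7 lungs (y axis), red for Y130A and blue for wild type, with 1 symbol per litter. The AT2 list lies between 13.7 and 14.2 in all 7 lungs, while the liver list spans 5.97 to 9.86 and the oesophagus list 3.42 to 7.16.

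A list of 11 genes was taken from the study as higher with both alleles in the liver. They were chosen there in part on livers of the embryos whose lungs are described here, so they are no independent evidence of a direction, and their lung values concern another organ. In the Y130A lung, 1 of the 11 was called (Tmem267), 3 had an unadjusted p below 0.05 (Tmem267, Atp1b3 and Gm21887), against 0.0178% and 2.92% of all genes, 8 lay above 0 and the median log2 fold change was 0.24. Atp1b3, a subunit of the sodium pump, had 3515, 3505, 3523 and 3529 normalized counts in Y130A and 2846, 3085 and 2997 in wild-type lungs. The 4 mutants were almost equal and all above the controls, but the difference was small, with a log2 fold change of 0.24 (SE 0.11, interval 0.03 to 0.46, adjusted p = 1). Aplp1 (-0.05), Ccdc85a (-0.02), Csmd3 (-0.21), Pcdh11x (0.17), Amph (0.21) and Gria4 (0.32) overlapped between the groups. Kirrel2 had 0 to 7.58 normalized counts in any lung, and Ctsw, a protease of cytotoxic cells, had 13.6 to 24.4 in mutants and 3.57 to 13.8 in controls, with overlap.

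In Y130A liver, 13 genes were called by the stringent criteria (0.077% of 16892), all higher, and liver and lung libraries are of the same embryos. In lung, 2 of the 13 were called at an adjusted p below 0.05 (Tmem267 and Car1), 9 lay above 0, and 8 had an interval within 2-fold, against 0.0178%, 48.2% and 75.1% of all genes. Their median log2 fold change was 0.24 in lung and 1.92 in liver, where they had been selected. For Atp1b3, the difference between organs was itself called, with 1.31 in liver and 0.24 in lung (difference -1.07, SE 0.14, adjusted p = 9.02e-05). The difference also had an adjusted p below 0.05 (as for 0.0651% of all genes) for Aplp1 (1.20 and -0.05, adjusted p = 0.0367), Nat14 (1.68 and -0.32, 0.0374), Adam22 (1.19 and 0.05, 0.0374), Zc4h2 (1.56 and -0.06, 0.0495) and Csmd3 (2.50 and -0.21, 0.0495). These tests reuse the liver values by which the 13 genes were chosen, so their number cannot be set against the share of all genes. They also treat lung and liver of the same embryo as independent. Sgcd, a subunit of the sarcoglycan complex, had 439, 491, 408 and 435 normalized counts in Y130A and 321, 232 and 268 in wild-type lungs, without overlap. Its log2 fold change was 0.70 in lung (SE 0.22, adjusted p = 1) and 1.84 in liver, and the difference between them did not pass (adjusted p = 0.296). Over all genes, 1 gene differed between lung and liver by an adjusted p below 0.01 and more than 2-fold (0.00592%), and 6 did with litter as a block, while 0 differed between lung and brain with either (edgeR, with 1.72% of genes at an unadjusted p below 0.05 against brain).

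**Figure D5:**
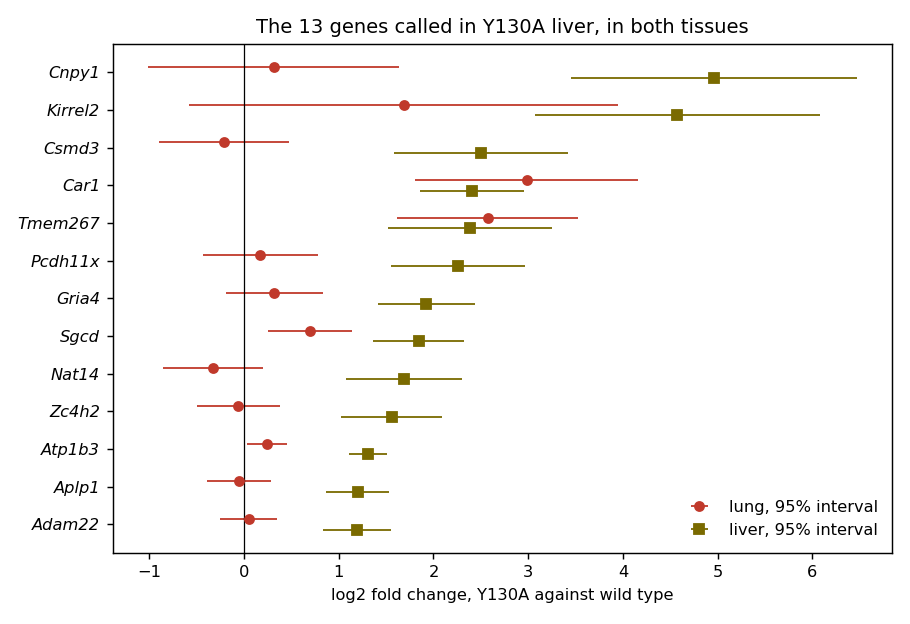
Log2 fold change with its 95% interval (x axis, Y130A against wild type) of the 13 genes called in Y130A liver (y axis), in lung (red circles) and in liver (squares). Car1 and Tmem267 lie near their liver values in lung, while the lung values of Adam22, Aplp1, Zc4h2, Nat14 and Csmd3 lie around 0.

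Lungs with the S226A allele, which were compared with wild-type lungs of other litters, had 51 genes called (0.302% of 16892). In the Y130A lung, 1 of these 51 was called at an adjusted p below 0.05 (Tmem267), 5 were higher and 1 lower at an unadjusted p below 0.05, and 34 had an interval within 2-fold. Over all genes, 0.0178% were called, and 1.71% were higher and 1.21% lower at an unadjusted p below 0.05. The 25 genes that were higher with S226A had a median log2 fold change of 0.22 with Y130A and 1.76 with S226A, and the 26 that were lower had 0.05 and -1.38. After Tmem267, the lowest p in the Y130A lung were those of H2-Q6, a class I gene with near-identical copies (log2 fold change 1.74, SE 0.57), and of Abca13, an ABC transporter (0.65, SE 0.25), both with an adjusted p of 1. Over all genes, 13 differed between the alleles by an adjusted p below 0.01 and more than 2-fold (0.077%), and 25 did with litter as a block. Without wild-type lung 2848, the count was 8. For 9 of the 13 the value was higher in Y130A than in S226A lung, and for 10 the interval in Y130A lung lay within 2-fold.

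Csf1r, the receptor that macrophages need to survive, had the lowest p of those 13. It had 1271 ± 65.5 normalized counts in Y130A and 1269 ± 81.5 in wild-type lungs (mean ± SD, n = 4 and 3). Its log2 fold change was 0.00 with Y130A (interval -0.15 to 0.16) and -1.13 with S226A, a difference of 1.14 (SE 0.11, adjusted p = 6.46e-09). Mpeg1, a pore-forming protein of macrophages, was at 0.24 with Y130A and -1.10 with S226A (adjusted p of the difference 0.000314), and the protease Ctss was at 0.14 and -1.13 (0.00779). Laptm5, Pik3ap1 and Wdfy4, genes of white blood cells, were between -0.06 and 0.14 with Y130A and between -1.45 and -1.02 with S226A. In the other direction, Mmp8 and Olfm4, which are known from neutrophils, were at 0.10 and 0.17 with Y130A and at 1.73 and 1.67 with S226A (adjusted p of the difference 0.00333 and 0.00153). Each allele was measured in its own litters, and the S226A litters had lower total counts, so that allele, litters and depth cannot be told apart in these differences.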

How the data were processed

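RNA of E18.5 lungs was sequenced as whole-organ libraries, 1 per embryo, and 7 libraries from litters of the Y130A allele are described here, out of 47 in 12 groups. The authors deposited raw read counts per gene in 1 table of 20456 genes. Per their processing notes, FastQC 0.11.5, Trim Galore 0.6.5, STAR 2.6.0b and DESeq2 were used, with genome build GRCm38. Counts of genes with near-identical copies depend on how the authors assigned reads, which was not examined here. Gene positions came from GENCODE M21, which matched 20424 genes.

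Counts were fitted with edgeR 4.0.16 (R 4.3.3) over all 47 libraries, with 1 coefficient per group, TMM scaling and a quasi-likelihood test. Genes with low counts were filtered (minimum count 10, minimum total 15), which left 16892, and p-values were adjusted by the Benjamini-Hochberg method over all of them. Unless another tool is named, an adjusted p is that of edgeR. Stringent calls needed an adjusted p below 0.01, a log2 fold change beyond 1 in size and a standard error below 1, and other calls an adjusted p below 0.05. Standard errors were derived from the F statistic, and 95% intervals from the t distribution with the fitted degrees of freedom. For single genes, the difference of means over the 7 lungs was set against all 35 arrangements of the labels (exact permutation test, two-sided), and littermates were compared by their difference in log2(normalized count + 1). The fit was checked on simulated data. DESeq2 1.42.0, RLE scaling, no filter, other sets of libraries, a litter block, robust spread and leaving out each lung were the alternatives.

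Littermates were matched by the litter number in the sample titles, and the litter block used that number. Deviations of littermates from their group means correlated at 0.302, 0.248 and 0.101, and those of 9 pairs from different litters at -0.243 to 0.0169, so litter pairs the samples. The main fit did not use this pairing, and fits with the litter block are among the alternatives. Replicates are separate embryos, and no 2 libraries of a group agreed within sampling noise (chi-square per degree of freedom 17.3 to 52.6).

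Members and gene lists were chosen with earlier results of these data known. Genes were named by a rule: Daxx, Atrx and the H3.3 genes, the study's list of liver genes shared with S226A, the 10 genes with the lowest p in each direction, genes with a stringent call in the main test, DESeq2, the fit of only 7 lungs or the block fit, the lowest p and the 2 highest levels per exon length in each list, genes called in Y130A liver and 3 called in S226A lung, and genes with a lower coordinate within 500 kb of that of Tmem267 or Daxx with an unadjusted p below 0.05, with Nnt. This rule gave 83 genes, apart from those that stand for high levels. Figures were drawn with matplotlib 3.10.9.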

Additional observations from a re-analysis of the deposited data

Results flagged for a closer look

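In groups of 4 lungs, a library was singled out where its gap to the nearest other exceeded Dixon's critical value as a share of the range. This held for 11 of 124 sets of 4 Y130A values examined, on the scale of log2(normalized count + 1), and chance alone gives about 1 in 20 for values of continuous spread. That rate is no measure for the 4 genes with reads in 1 mutant lung only, nor for genes named for a low p. For Igfbpl1 and Ms4a1 the mutant lung of litter 2848, for Ankdd1a that of litter 2851 and for Drd4 that of litter 2974 held the only reads among mutants (share 1.0). Mutant lung 2851 was the lowest for Mapk8ip2 (0.917), the heart gene Tnnt2 (0.92), Csmd3 (0.846) and the heart list (0.853). Mutant lung 2848 was the highest for Ccl28 (0.914) and for the B cell list (0.884), and mutant lung 2974 was the lowest for Slc12a2 (0.874).

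The log2 fold change in Y130A lung was lower than in Y130A liver by a test of the difference for Atp1b3 (-1.07), Aplp1 (-1.25), Nat14 (-2.01), Adam22 (-1.14), Zc4h2 (-1.62) and Csmd3 (-2.71). These 6 genes had been called in that liver, and the same liver values enter the difference. Against the S226A lung, the difference was 4.39 for Npffr2 (adjusted p = 0.0247 with edgeR), -3.49 for Ceacam10 (0.0216), -0.63 for Taf1d (0.0234) and -0.86 for Asf1b (0.0495). Npffr2 and Ceacam10 had at most 13.8 and 12.6 normalized counts in any Y130A-litter lung.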

How the results depend on the processing

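DESeq2 gave 8 stringent calls and 17 at an adjusted p below 0.05. Fits of only the 7 lungs, of only the 15 lungs and, with a litter block, of the 6 lungs of complete litters gave 0 at that level, where edgeR on all libraries gave 3. Leaving out 1 lung gave 0 to 1 stringent calls and 0 to 6 at 0.05, and 8 to 18 differences between alleles, where the full set gave 13. The litter block over all 47 libraries gave 6 differences from liver and 25 between alleles, and the cause was not tested. With the block over all libraries, Frmpd4 and Dpys were called and Car1 and Igfbpl1 were not, and it changed no other call among the named genes. With the block, Aplp1 was at 0.0176 (all libraries) and 0.0283 (6 lungs) and Zc4h2 at 0.0235 and 0.0266. H3f3b was at 0.0075 with DESeq2 and with RLE scaling, 0.0013 without a filter and 0.0010 in 15 lungs.

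Leaving out 1 lung put the median of 24 of the 42 gene lists on both sides of 0, with -0.34 to 1.28 for liver, and it ranged from -1.88 to -0.54 for oesophagus, 0.84 to 1.88 for skeletal muscle and 0.02 to 0.42 for interferon response. It also turned the sign of genes that were not called. Their ranges were -0.0074 to 1.44 for Gc, -0.065 to 0.37 for Lyz2, -0.096 to 0.0115 for Slc12a2, -0.39 to 0.036 for Csmd3, -0.0213 to 0.30 for Pcdh11x, -0.33 to 0.196 for Nnt, -0.015 to 0.11 for Adam22, -0.163 to 0.095 for Aplp1, -0.137 to 0.0257 for Zc4h2, -0.101 to 0.058 for Ccdc85a, -0.067 to 0.047 for H3f3b and -0.066 to 0.044 for Daxx. Of all values for named genes under the alternatives, 1138 kept direction and side of the threshold, 28 turned sign, 16 passed and 20 no longer passed. Only Tmem267, Car1 and Igfbpl1 were called in the main fit, so the 20 losses are all theirs. Most of the 1138 are of genes that were not called and stayed so, which is no measure of how stable a call is. Genes removed by a filter gave no value there. Below 10 normalized counts, 1 of 1964 intervals excluded 2-fold differences, so depth limits what rare transcripts can show.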

Other observations

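Other lists held 0 calls with edgeR. The median log2 fold change was 0.14 for 11 airway secretory genes, -0.04 for 9 genes of tip progenitors, -0.12 for 13 genes of smooth muscle and pericytes and -0.08 for 7 genes of mesothelium. It was -0.19 for 8 Schwann cell genes, -0.13 for 8 cartilage genes, 0.11 for 17 genes of T and NK cells, 0.00 for 8 genes of mast cells and basophils and 0.07 for 8 megakaryocyte genes. Genes of thymus and thyroid (4 tested) were at 0.04, and those of the C57BL/6 substrains (7 tested) at 0.03. Brown fat genes (4 tested) were at 0.52, and Ucp1, which makes brown fat produce heat, had 3.95, 8.82, 6.89 and 0 normalized counts in Y130A and 0, 0 and 2.38 in wild-type lungs.

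Early response and heat shock genes (15 tested) had a median of 0.17, and their mean level was 9.46 in mutant lung 2974 and 8.06 to 8.46 in the other 6 lungs. Nr4a1, a nuclear receptor induced within minutes by many stimuli, had 2215 normalized counts in that lung, 277 to 721 in the other mutants and 333 to 547 in controls. Scn3b, a subunit of voltage-gated sodium channels, had 2106, 2802, 2965 and 2728 normalized counts in Y130A and 1506, 1936 and 1787 in wild-type lungs. The groups did not overlap, and the log2 fold change was 0.60 (SE 0.19, adjusted p = 1 with edgeR, 0.0367 with DESeq2).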
